A study of Mus musculus with 8 samples.

Results

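The subunit genes of the respiratory chain and of ATP synthase were followed in thioglycollate-elicited peritoneal macrophages of C57BL/6 mice. Members were all genes of the array annotation whose symbol begins with Nduf followed by a, b, c, s or v and a number (complex I), with Sdha to Sdhd (complex II), with Uqcr (complex III), with Cox4 to Cox8 (complex IV) or with Atp5 (complex V). The rule used names only, and it found 75 of the 15946 named genes on the array: 30 of complex I, 4 of complex II, 8 of complex III, 17 of complex IV and 16 of complex V.

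RNA was measured on 8 Illumina mouse expression arrays. Cells carried an siRNA against GABP (siGABP), an siRNA against MLL (siMLL) or a scrambled siRNA (siCtrl). Each was examined after 6 h of Kdo2 lipid A (KLA), which activates Toll-like receptor 4, and without treatment, with 3 arrays for siMLL untreated and a single array for every other of the 6 combinations. All cells thus carried an siRNA, and the labels give neither the age of the mice nor whether the 3 siMLL arrays came from separate cultures, so that p-values measure a spread that may be technical. GABP is an ETS-family transcription factor and MLL a histone H3 lysine 4 methyltransferase. Which member of the MLL family and which GABP subunit was targeted is not given in the labels.

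The respiratory chain passes electrons from NADH (complex I) and succinate (complex II) by way of ubiquinone, complex III and cytochrome c to oxygen at complex IV. Proton pumping by complexes I, III and IV drives ATP synthase, complex V. Activated macrophages are known to rely more on glycolysis and less on oxidative phosphorylation than resting ones, and in several mammalian cell types GABP, also called NRF-2, and NRF1 are known as regulators of nuclear genes for respiratory chain subunits. The genes described here are all nuclear.

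The macrophage marker gene Adgre1, which encodes F4/80, read between 2330 and 3664 intensity units over the 8 arrays and the lysozyme gene Lyz2 between 23069 and 35652. All 6 macrophage markers with a probe lay above the intensity filter. Several defining markers of other cells were dim: Cd79a of B cells read 118 to 126, Cd3e of T cells 116 to 131, S100a9 of neutrophils 121 to 146 and Mcpt4 of mast cells 98.0 to 110, against a median of 139.5 over all probes. S100a8, another neutrophil gene, was bright, at 688 to 919. Of the markers of T and NK cells, mast cells and eosinophils, Cd3d, Klrb1c, Fcer1a and Prg2 passed the filter, at between 134 (Cd3d) and 165 (Klrb1c). Mesothelial and fibroblast genes were above the filter for 6 of 7 genes, and Dcn, which encodes the proteoglycan decorin, read 2305 to 3127. Gabpa, the gene of the DNA-binding GABP subunit, read 157 after KLA and 127 untreated with siGABP, against 275 after KLA and 186, 180 and 187 untreated with siMLL and 318 after KLA and 202 untreated with siCtrl (log2 -1.02 ± 0.09 SE for siGABP minus siCtrl, adjusted p = 0.000211, limma). Gabpb1, the gene of another GABP subunit, was higher with siGABP than with siCtrl. It read 968 after KLA and 414 untreated with siGABP, against 514 and 226 with siCtrl (log2 0.97 ± 0.08 SE, adjusted p = 0.000155, limma). Kmt2a, the gene of MLL, was not analysed here, so the siMLL label was not checked against its target.

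Promoter sequence is shown for 3 of the subunit genes called with siGABP. Atp5j and Atp5pb were the members lower with siGABP, and Uqcr11 was the called member whose promoter carries the longer ETS motif. The other called members, among them Uqcrc2 with the largest rise, are not shown. The windows run from 250 bases before to 50 bases after an annotated start and come from RefSeq (build GRCm38.p6), each printed on the strand of the gene. Capitals mark CCGGAA, a core bound by ETS factors, wherever it occurs on either strand.
Atp5j, start used by the window chr16:84834927-84835226, minus strand: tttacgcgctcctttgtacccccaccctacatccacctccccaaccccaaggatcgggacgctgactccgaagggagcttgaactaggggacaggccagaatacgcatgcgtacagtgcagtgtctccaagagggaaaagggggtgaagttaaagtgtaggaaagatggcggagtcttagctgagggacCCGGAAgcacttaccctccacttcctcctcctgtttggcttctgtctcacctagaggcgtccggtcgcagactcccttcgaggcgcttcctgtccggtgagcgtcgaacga
Atp5j, start used by the window chr16:84835576-84835875, minus strand: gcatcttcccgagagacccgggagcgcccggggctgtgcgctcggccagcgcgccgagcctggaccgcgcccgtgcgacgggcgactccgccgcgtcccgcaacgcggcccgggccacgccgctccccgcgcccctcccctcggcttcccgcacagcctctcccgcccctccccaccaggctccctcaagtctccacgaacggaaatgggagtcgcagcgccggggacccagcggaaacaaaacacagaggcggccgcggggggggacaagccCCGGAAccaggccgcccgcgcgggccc
Atp5pb, window chr3:105959214-105959513, minus strand: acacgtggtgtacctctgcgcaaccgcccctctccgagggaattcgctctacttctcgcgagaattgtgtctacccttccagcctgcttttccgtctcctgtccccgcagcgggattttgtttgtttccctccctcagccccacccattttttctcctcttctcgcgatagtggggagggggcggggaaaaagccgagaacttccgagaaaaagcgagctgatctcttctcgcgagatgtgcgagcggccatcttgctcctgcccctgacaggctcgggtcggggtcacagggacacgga
Uqcr11, window chr10:80406772-80407071, minus strand: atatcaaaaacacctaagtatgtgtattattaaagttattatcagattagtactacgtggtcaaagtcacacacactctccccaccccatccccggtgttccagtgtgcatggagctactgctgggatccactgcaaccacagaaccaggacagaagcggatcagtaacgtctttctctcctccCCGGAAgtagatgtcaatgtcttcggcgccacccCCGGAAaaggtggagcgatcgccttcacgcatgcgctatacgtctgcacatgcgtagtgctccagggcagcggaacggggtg

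Of these windows, Uqcr11 held the core at positions -66 and -32 from its start, and the Atp5j windows held it once each, at -61 in the first and at 24 in the second. The Atp5pb window held none. The first Atp5j window overlapped the promoter window of Gabpa (chr16:84834874-84835173, plus strand) by 247 bases. The Atp5j start of this first window and the annotated start of Gabpa lie back to back on opposite strands with 147 bases between them. This does not hold for the Atp5j start of the second window, which did not overlap that of Gabpa.

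Promoter windows were found for 61 of the 75 members. The longer motif CCGGAAGT, searched on both strands, occurred in 5 of these 61 members (8.2%), against 9.12% of the genes tested with a window and 4.31% of all genes with one. The members were Atp5h, Cox8a, Ndufs3, Uqcr11 and Uqcrh. The core CCGGAA, which is contained in the longer motif, occurred in 24 of 61 members (39.3%), against 30.5% of genes tested and 16.7% of all genes. The NRF1 motif GCGCATGCG occurred in 6 of 61 members (9.84%), against 4.09% of genes tested and 1.95% of all genes, and these were Atp5g2, Atp5k, Cox6a1, Ndufa8, Uqcr11 and Uqcrc1. A match is a description of the sequence and not of binding.

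Most subunit genes were read by bright probes. The brightest member of each complex averaged, over the 8 arrays, 9656 intensity units for Ndufa13 (complex I), 1832 for Sdhc (II), 5758 for Uqcrh (III), 12035 for Cox4i1 (IV) and 11066 for Atp5b (V). Brightness depends on the probe, and levels of different genes were therefore not ranked against each other. A gene was tested when its brightest probe had a mean log2 value above 6.73, the median of all probes, and 67 of the 75 members passed. The other 8 were Ndufs1, Sdha, Uqcrfs1, Uqcrq, Cox6b2, Cox8b, Cox8c and Atp5md, whose mean intensities lay between 101 and 135. Just outside the filter was Uqcrfs1, the Rieske iron-sulphur protein of complex III, with a mean log2 of 6.66, and just inside was Ndufc2 with 6.76. Sdha encodes the catalytic flavoprotein of complex II and Ndufs1 the large iron-sulphur subunit of complex I. Their probes read 96.6 to 120 and 107 to 129, so that these genes were not measured above the filter in any comparison. With no detection values at hand, dim probes could not be separated from background signal.

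**Figure D1:**
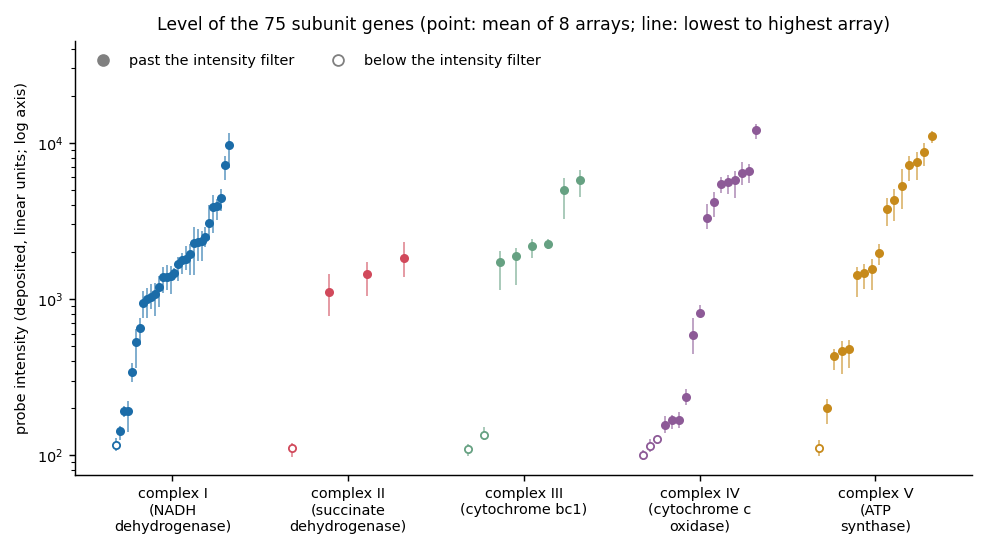
Mean probe intensity of the 75 subunit genes (points, log axis, deposited linear units) with the lowest and highest of the 8 arrays (lines), by complex and in order of brightness within each. Open points mark the 8 members below the intensity filter, all with mean intensities between 101 and 135.

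The first comparison asked how 6 h of KLA moved these genes, as a mean over siGABP, siMLL and siCtrl cells (3 KLA and 5 untreated arrays in all). Subunit genes of all 5 complexes fell. Of the 67 members tested, 45 were lower after KLA at an adjusted p under 0.05 (67.2%) and 1 was higher, against 36.8% of all 8793 genes tested that were lower and 20.0% that were higher. The median log2 difference was -0.28 over the members and -0.04 over all genes, and 64 of the 67 estimates were negative. The falls were small: the largest was 1.49-fold, and all 67 members changed by less than 2-fold. Because the deposited arrays share 1 distribution of intensities, each change is relative to the other genes on the array. In bulk RNA, fewer cells of a type and less RNA per cell cannot be told apart.

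Array by array, the median log2 level of the 67 members was 10.57 with siGABP, 10.56 with siMLL and 10.44 with siCtrl after KLA. In untreated cells it was 10.92 with siGABP, 10.99, 10.93 and 10.93 with siMLL and 10.75 with siCtrl. The 3 KLA arrays thus lay below the 5 untreated arrays, whereas the median of all genes tested was 7.88 to 7.89 after KLA and 7.92 to 7.93 untreated. For single genes, all 3 KLA arrays lay below all 5 untreated arrays in 33 of the 67 members, against 29.8% of all genes tested, and above them in 1 member, against 17.5%. Since most members were bright, the genes whose probe lay above the 75th percentile of intensity form a closer background: 51.3% of the 4727 genes tested there were lower, as were 46 of the 59 members among them. The median log2 difference was -0.17 over these 4727 genes and -0.30 over these 59 members, a narrower gap than against all genes. Summed intensities of the macrophage markers were 33353 to 42103 after KLA and 37696 to 41245 untreated, and those of the mesothelial and fibroblast genes 3975 to 4460 after KLA and 3912 to 4874 untreated, so that both ranges overlapped. Of the 6 macrophage markers, 3 rose and 2 fell with KLA, led by the lipopolysaccharide co-receptor gene Cd14 at 2.06, and of the 6 mesothelial and fibroblast genes tested none passed (limma, 0 with an unadjusted p under 0.05). Their part in the result was not tested.

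The counts by complex stand against 36.8% lower and 20.0% higher among all genes tested. Among the genes above the 75th percentile of intensity, 51.3% were lower and 25.7% higher. In complex I, 21 of the 29 genes tested fell (72.4%) and none rose (median -0.30). The subunits of the matrix arm, which takes electrons from NADH, fell in 10 of 12 cases (median -0.34), and those of the membrane arm, which pumps protons, in 10 of 16 (median -0.28). Ndufa4, found with complex I first and later assigned to complex IV, fell by 0.28 on the log2 scale. The largest fall of any member was in Ndufv3, an accessory subunit of the matrix arm next to the NADH-binding site. Ndufv3 read 1813 with siGABP, 1863 with siMLL and 1419 with siCtrl after KLA, against 2478 with siGABP, 2714, 2889 and 2812 with siMLL and 2240.3 with siCtrl untreated. No KLA array reached the lowest untreated one (log2 -0.58 ± 0.06 SE, adjusted p = 5.27e-06, limma). A second, dim probe of Ndufv3 with a mean intensity of 172 differed by 0.04, and the mean of both probes gave a difference of -0.27.

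Ndufa13, a membrane arm subunit also known as GRIM-19, read 7270.4 with siGABP, 8265 with siMLL and 6878 with siCtrl after KLA. Untreated, it read 11163 with siGABP, 10525, 11057 and 11567 with siMLL and 10525 with siCtrl, without overlap (log2 -0.53 ± 0.06 SE). Ndufb8 and Ndufa3, accessory subunits of the membrane arm, fell by 0.50 and 0.47. Among the core subunits that carry the flavin or the iron-sulphur clusters, Ndufs8, Ndufv1 and Ndufs7 fell by 0.45, 0.38 and 0.35. Ndufs3, a core subunit without a cluster, fell by 0.31 with its bright probe, while its second probe (mean intensity 311) differed by 0.02. The 8 genes of complex I that did not pass were Ndufa8, Ndufa9, Ndufb2, Ndufb4, Ndufb7, Ndufb11, Ndufc2 and Ndufs4, all with negative estimates between -0.31 and -0.01. Ndufb7 and Ndufa8 lay nearest to the threshold, with adjusted p = 0.0511 and 0.058 (limma). For Ndufs4, a matrix arm subunit, 3 bright probes gave differences of -0.09, -0.13 and 0.00.

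In complex II, which is also the succinate dehydrogenase of the tricarboxylic acid cycle, all 3 genes tested fell (median -0.42). Sdhb, the iron-sulphur subunit, read 1354 with siGABP, 1257 with siMLL and 1042 with siCtrl after KLA, against 1718 with siGABP, 1543, 1626 and 1592 with siMLL and 1462 with siCtrl untreated (log2 -0.39 ± 0.06 SE, adjusted p = 0.000101, limma). The groups did not overlap. The membrane anchors Sdhc and Sdhd fell by 0.46 ± 0.06 and 0.42 ± 0.11 (SE). For Sdhd the groups overlapped: the siCtrl KLA array read 1121, above siMLL untreated replicate 2 at 917. The second probes of Sdhb and Sdhc, with mean intensities of 113 and 97.4, were below the filter and each differed by -0.09.

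In complex III, 3 of 6 genes tested fell (50%, median -0.30), a share near the 51.3% of genes above the 75th percentile of intensity. The small subunits Uqcr10, Uqcr11 and Uqcrh, the last of which encodes the hinge protein that binds cytochrome c1, fell by 0.48, 0.47 and 0.46. Uqcr10 read 4287 with siGABP, 4327 with siMLL and 3247 with siCtrl after KLA, against 5942 with siGABP, 5886, 5666 and 5799 with siMLL and 4792 with siCtrl untreated. The 2 core proteins did not pass, with differences of -0.03 ± 0.06 for Uqcrc2 and -0.08 ± 0.06 for Uqcrc1 (SE). Neither did Uqcrb, at -0.14 ± 0.08.

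In complex IV, 8 of 14 genes tested fell (57.1%) and 1 rose (median -0.26). Those that fell were Cox4i1, Cox5a, Cox5b, Cox6a1, Cox6b1, Cox6c, Cox7c and Cox8a, subunits present in most tissues, by between 0.25 (Cox5b) and 0.35 (Cox8a). Cox6a1 and Cox6b1 each had 2 bright probes, which gave -0.29 and -0.27 for Cox6a1 and -0.32 and -0.27 for Cox6b1. Among isoforms known for restricted expression, Cox4i2, a lung isoform, and Cox6a2 and Cox7a1, isoforms of heart and skeletal muscle, did not pass the test, at 0.04 ± 0.07, -0.09 ± 0.06 and -0.01 ± 0.07 (SE). Cox6b2, Cox8b and Cox8c were below the filter. Cox7a2 and Cox7b, subunits of most tissues, did not pass either, at -0.09 and 0.09. The gene that rose was Cox7b2, a testis isoform. It read 168 with siGABP, 158 with siMLL and 179 with siCtrl after KLA, against 154 with siGABP, 156, 140.5 and 153 with siMLL and 139 with siCtrl untreated (log2 0.21 ± 0.08 SE, adjusted p = 0.0319, limma). This probe is dim, and omission of the siCtrl untreated array gave a difference of 0.12 with adjusted p = 0.221 (limma). Omission of the siCtrl KLA array gave the same values, since either step removes the siCtrl comparison. Omission of either siGABP array gave 0.24 with adjusted p = 0.0529 (limma).

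In complex V, 10 of 15 genes tested fell and none rose (median -0.28). The 3 genes of the c ring, which turns with the passage of protons, encode the same mature protein and all fell, by 0.43 (Atp5g1), 0.39 (Atp5g2) and 0.21 (Atp5g3). Of the F1 head and central stalk, Atp5c1 and Atp5d fell by 0.43 and 0.28, and the catalytic beta subunit Atp5b fell by only 0.13 (adjusted p = 0.0499, limma), while Atp5a1 and Atp5e differed by -0.20 ± 0.11 and -0.18 ± 0.11 (SE) and did not pass. In the peripheral stalk, Atp5h and Atp5o fell by 0.40 and 0.37. The other stalk genes, Atp5j (coupling factor 6) and Atp5pb (subunit b), differed by -0.03 ± 0.06 and -0.06 ± 0.08. Among the accessory subunits of the membrane part, Atp5j2 and Atp5mpl fell by 0.38 and 0.33, and Atp5k differed by -0.15 ± 0.13.

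**Figure D2:**
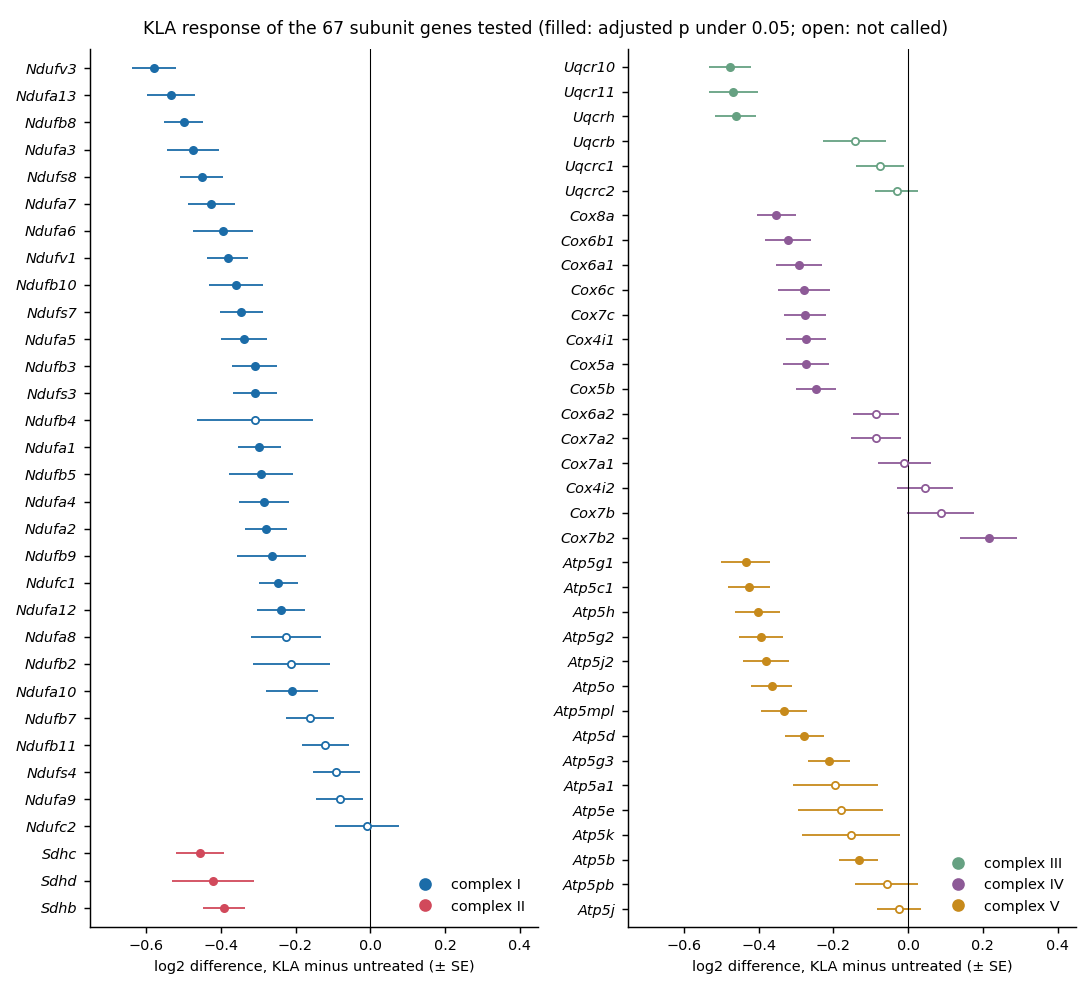
Log2 difference of KLA minus untreated cells with its standard error for the 67 subunit genes tested, by complex and in order of size (filled, adjusted p under 0.05). The points lie between -0.58 for Ndufv3 and 0.21 for Cox7b2, and 64 of 67 lie left of 0.

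The counts for genes around the respiratory chain stand against 36.8% lower and 20.0% higher among all genes tested. Of 35 assembly factors tested, 17 fell (48.6%) and 5 rose (14.3%), with a median of -0.15. Coa6 and Tmem126b, assembly factors of complexes IV and I, fell by 0.78 and 0.65, and Coa5 rose by 0.68. Of 14 genes for electron carriers and ubiquinone synthesis, 5 fell (35.7%) and 3 rose (21.4%), shares close to those of all genes. Coq9 of the ubiquinone pathway fell by 0.69, while Cycs, which encodes cytochrome c, and Gpd2, the mitochondrial glycerol-3-phosphate dehydrogenase, rose by 0.69 and 1.02. Of 15 genes of the tricarboxylic acid cycle and pyruvate dehydrogenase, 7 fell (46.7%) and 2 rose (13.3%). Idh2 and Idh3b, isocitrate dehydrogenase genes, fell by 0.60 and 0.37 and Dld rose by 0.47. Among 11 mitochondrial carriers and porins, 5 fell (45.5%) and 2 rose (18.2%), with Slc25a22, a glutamate carrier, at 1.46 and Vdac1, a porin, at -0.50. Of 15 genes for mitochondrial transcription and its nuclear regulators, 6 rose (40.0%) and 5 fell (33.3%). Gabpb1, Tfam and Gabpa rose by 1.37, 0.68 and 0.62, opposite in sign to most subunit genes.

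The second question was whether the KLA response of the subunit genes differed between siRNA groups. The fall was seen within each group. With siGABP, 61 of 67 members were lower after KLA (median -0.31), with siMLL 62 (median -0.27) and with siCtrl 59 (median -0.29), while the medians of all genes tested were -0.06 in each. The genes above the 75th percentile of intensity had a median of -0.17 in the first comparison and were not split by group. In all 3 siRNA groups together, 53 of 67 members were lower, against 43.1% of all genes tested. Among the 14 that were not, 5 belonged to complex IV, where 9 of 14 genes were lower with siCtrl, 11 with siMLL and 13 with siGABP.

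No member passed in the test of the difference between siRNA groups in the KLA response (limma, mean-per-group model, Benjamini-Hochberg). At the same adjusted threshold, 0% of all genes tested were called higher and 0.0114% lower, for siGABP and for siMLL alike. At an unadjusted p under 0.05 there were 6 members for siGABP against siCtrl and 1 for siMLL against siCtrl. The share of all genes at that unadjusted threshold was not counted. The smallest p for siGABP belonged to Ndufa8, at 939 after KLA against 845 untreated with siGABP and 754 after KLA against 967 untreated with siCtrl (difference of log2 responses 0.53 ± 0.15 SE, adjusted p = 0.483, limma). Atp5pb and Atp5g1 followed with -0.46 ± 0.16 and 0.34 ± 0.13. For siMLL these were Cox7a1 (-0.32 ± 0.13), Cox7b2 (-0.36 ± 0.15) and Ndufa13 (0.20 ± 0.14), all with adjusted p between 0.67 and 0.779. This model has 2 residual degrees of freedom, both from the siMLL untreated triplicate, whose spread stands for that of the 5 single arrays.

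**Figure D3:**
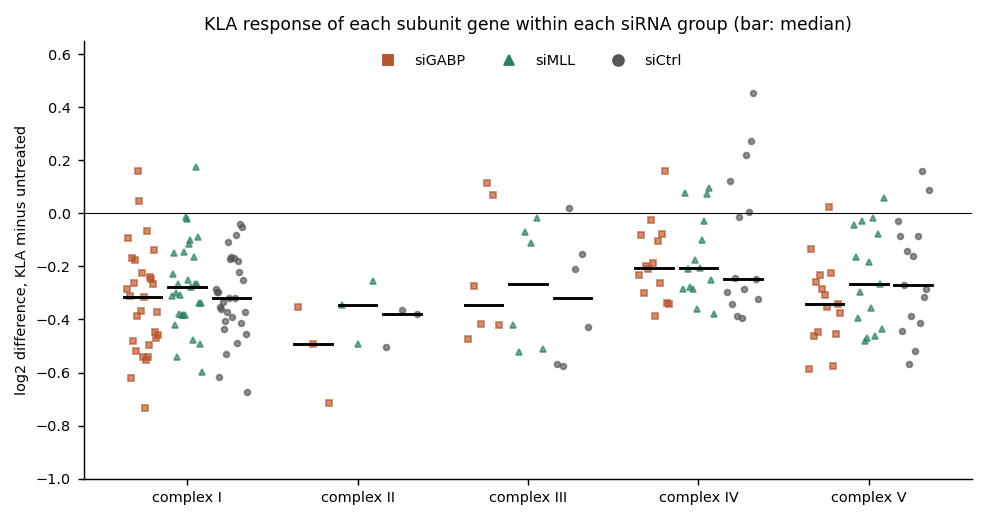
Log2 difference of KLA minus untreated for each of the 67 subunit genes tested, within siGABP, siMLL and siCtrl cells and by complex; bars are medians over genes. The medians over all members were -0.31 with siGABP, -0.27 with siMLL and -0.29 with siCtrl, and points of the 3 groups overlap in every complex.

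The third question was how siGABP changed the subunit genes relative to siCtrl, averaged over KLA-treated and untreated cells. Of 67 members, 9 were higher (13.4%) and 2 were lower (2.99%), against 5.81% of all genes tested that were higher and 5.47% that were lower. Among the genes above the 75th percentile of intensity, a closer background for bright members, 10.6% were higher and 10.4% lower. The median over the members was 0.07, against -0.01 over all genes, with 39 of 67 estimates positive. The number of members lower was 1 to 4 when 1 array was left out, and their share was not tested against that of all genes. Both genes that fell belong to the peripheral stalk of ATP synthase, of which Atp5o was called higher (0.35) and Atp5h differed by 0.12. Both siRNAs were compared with the same 2 siCtrl arrays, 1 untreated and 1 after KLA, and their effects are therefore not independent of each other.

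Atp5j, coupling factor 6, showed the largest fall. It read 338 after KLA and 333 untreated with siGABP, against 508 after KLA and 488, 541 and 512 untreated with siMLL and 485 after KLA and 513 untreated with siCtrl. The 2 siGABP arrays lay apart from the other 6, whose lowest value was 485. The fall from siCtrl was 1.54-fold (log2 -0.62 ± 0.08 SE, adjusted p = 0.00101, limma), and it passed under all 16 alternatives of processing. Of the other peripheral stalk genes, Atp5h differed by 0.12 and Atp5o was higher by 0.35. A second Atp5j probe, below the filter with a mean intensity of 109, differed by 0.22. Atp5j is the immediate neighbour of Gabpa, as described above. With KLA, Gabpa was higher by 0.62 and Atp5j differed by -0.03. Whether the position beside Gabpa bears on the Atp5j difference was not tested.

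Atp5pb, subunit b, read 159 after KLA and 196 untreated with siGABP, against 203 after KLA and 208, 190.4 and 191 untreated with siMLL and 229 after KLA and 218 untreated with siCtrl (log2 -0.41 ± 0.11 SE, adjusted p = 0.0383, limma). The untreated siGABP array lay within the siMLL range. Without the siGABP KLA array the difference was -0.19 with adjusted p = 0.398, and without the siCtrl KLA array -0.31 with adjusted p = 0.31. Leaving out the siCtrl untreated array, siMLL untreated replicate 1 or siMLL untreated replicate 3 also ended the call, with adjusted p = 0.0582, 0.0532 and 0.0565.

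The 9 genes higher with siGABP came from all complexes but IV. Uqcrc2, a core protein of complex III, read 2105 after KLA and 2009 untreated with siGABP, against 1229.7 after KLA and 1364 untreated with siCtrl (log2 0.68 ± 0.08 SE, adjusted p = 0.000683, limma). Uqcr11 and Uqcr10 of the same complex were higher by 0.41 and 0.36. Atp5mpl and Atp5o of complex V were higher by 0.47 and 0.35, Ndufa5, Ndufc1 and Ndufb8 of complex I by 0.37, 0.33 and 0.28, and Sdhb of complex II by 0.31. The second probe of Ndufa5, with a mean intensity of 448, differed by 0.04. This count rested on single arrays: it was 2 without the siGABP KLA array, 3 without the siCtrl KLA array and 6 without the siCtrl untreated array. The share of all genes called higher was 1.32%, 1.48% and 4.22% under the same omissions. Among members with the CCGGAAGT motif, the siGABP difference ranged from -0.14 to 0.41 in the 5 tested (median 0.12), with 1 called higher and none lower. Among the 51 tested members with a promoter window and without the motif the median was 0.08. For the shorter core CCGGAA the order was the other way. The median was 0.01 in the 22 tested members with the core, of which 3 were called higher and 1 lower. It was 0.08 in the 34 without the core, of which 4 were called higher and 1 lower.

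With siMLL, 8 of 67 members were higher (11.9%) and none was lower, against 4.26% and 2.67% of all genes tested (limma). Among the genes above the 75th percentile of intensity, 9.86% were higher and 6.62% lower. In either direction 20 members had an unadjusted p under 0.05, a threshold at which the share of all genes was not counted. Cox6a2, the muscle isoform of a complex IV subunit, read 656 after KLA and 694, 759 and 760 untreated with siMLL, against 446 after KLA and 450.4 untreated with siCtrl. All 4 siMLL arrays were above the siCtrl arrays and above the siGABP arrays, which read 464 after KLA and 472 untreated (siMLL minus siCtrl log2 0.70 ± 0.07 SE, adjusted p = 0.000388, limma). Uqcrc2 read 2059 after KLA and 2105, 2091 and 2052 untreated with siMLL, against 1229.7 after KLA and 1364 untreated with siCtrl, a difference of 0.69 ± 0.07. The other 6 were Ndufv3 (0.37), Uqcr10 (0.33), Atp5o (0.32), Ndufb3 (0.31), Atp5mpl (0.31) and Ndufb8 (0.31). Omission of a single array lowered this count to 2 (siCtrl untreated), 3 (siCtrl KLA) or 4 (siMLL KLA). With the same arrays left out, 1.41%, 1.47% and 2.05% of all genes were called higher.

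For Uqcrc2, the siGABP and siMLL arrays read between 2009 and 2105, so that the 2 siCtrl arrays were the ones that stood apart. The other genes called with both siRNAs differed from siCtrl, with siGABP and siMLL, by 0.47 and 0.31 in Atp5mpl, 0.36 and 0.33 in Uqcr10, 0.35 and 0.32 in Atp5o and 0.28 and 0.31 in Ndufb8. The genes called with siGABP but not with siMLL were at -0.62 and 0.03 in Atp5j, -0.41 and -0.22 in Atp5pb, 0.41 and 0.24 in Uqcr11, 0.37 and 0.19 in Ndufa5, 0.33 and 0.13 in Ndufc1 and 0.31 and 0.19 in Sdhb. Those called with siMLL but not with siGABP were at 0.07 with siGABP and 0.70 with siMLL in Cox6a2, 0.25 and 0.37 in Ndufv3 and 0.27 and 0.31 in Ndufb3. Among the mitochondrial carriers and porins, 4 of 11 genes (36.4%) were higher with siGABP and 5 of 11 (45.5%) with siMLL, against 5.81% and 4.26% of all genes. Among genes above the 75th percentile of intensity these shares were 10.6% and 9.86%. The carriers and porins that were higher included Vdac2 (0.38 and 0.48), Slc25a11 (0.45 and 0.38) and Vdac1 (0.32 and 0.34). Of 35 assembly factors, 3 were called higher and 3 lower with siGABP (8.57% each, against 5.81% and 5.47% of all genes). With siMLL, 1 was higher and 1 lower (2.86% each, against 4.26% and 2.67%). Ndufaf3, a complex I assembly factor, was higher with both (0.64 and 0.75). No gene for electron carriers, ubiquinone synthesis, the tricarboxylic acid cycle or pyruvate dehydrogenase was called with either siRNA. At an unadjusted p under 0.05, these were 1 of 14 and 3 of 15 with siGABP and 2 of 14 and 3 of 15 with siMLL.

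Of the 6 mesothelial and fibroblast genes tested, 2 were lower with each siRNA, against 5.47% (siGABP) and 2.67% (siMLL) of all genes. Upk3b and Wt1 were lower with siGABP (-0.48 and -0.42) and with siMLL (-0.43 and -0.35) than with siCtrl. The others were not called. With siGABP and siMLL, the mesothelial gene Msln differed by -0.12 and -0.13 and Col1a1 by 0.20 and 0.04. Col3a1 differed by -0.46 and -0.28, and Dcn by 0.01 and -0.03. The summed intensity of the list was 4239 to 4269 with siGABP, 3912 to 4460 with siMLL and 3975 to 4874 with siCtrl. No macrophage marker was called with either siRNA, with unadjusted p under 0.05 in 1 of 6 for siGABP and 2 of 6 for siMLL. The part of these cells in the siRNA differences was not tested.

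**Figure D4:**
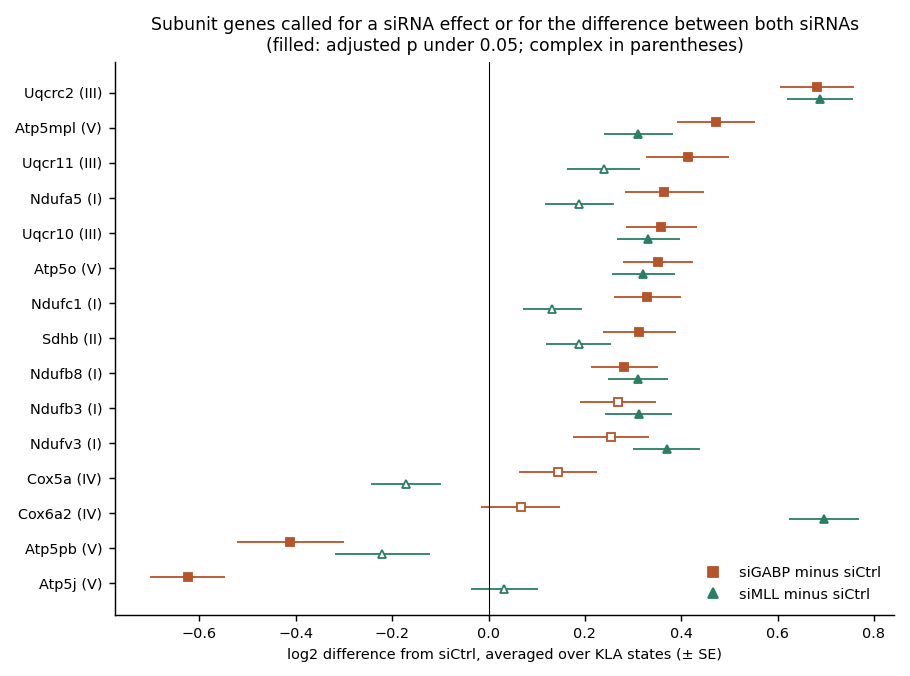
Log2 difference from siCtrl with its standard error for the 15 subunit genes called for siGABP, for siMLL or for the difference between them (squares, siGABP; triangles, siMLL; filled, adjusted p under 0.05). Atp5j is at -0.62 with siGABP and 0.03 with siMLL, and Cox6a2 is at 0.07 with siGABP and 0.70 with siMLL.

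Compared directly, siGABP and siMLL cells differed in 3 of 67 members: 2 were lower with siGABP and 1 was higher, against 2.92% and 2.37% of all genes tested. Among the genes above the 75th percentile of intensity these shares were 6.94% and 5.14%. No siCtrl array stands on either side of this comparison, but the siCtrl arrays enter the model through its KLA effect and its spread. Atp5j was lower with siGABP by 0.66 ± 0.07 (SE) on the log2 scale, with the 2 siGABP arrays at 333 and 338 and the 4 siMLL arrays between 488 and 541 (adjusted p = 0.00125, limma). Cox6a2 was lower by 0.63 ± 0.07, with siGABP at 464 and 472 and siMLL between 656 and 760 (adjusted p = 0.00165, limma). Cox5a, a subunit of complex IV that is present in most tissues, read 3319 after KLA and 4077 untreated with siGABP, against 2787 after KLA and 3076, 3138 and 3447 untreated with siMLL (log2 0.32 ± 0.07 SE, adjusted p = 0.03, limma). The Cox5a call ended without siMLL untreated replicate 1 (adjusted p = 0.0739), the siMLL KLA array (0.0637), the siGABP untreated array (0.171) or the siGABP KLA array (0.15).

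**Figure D5:**
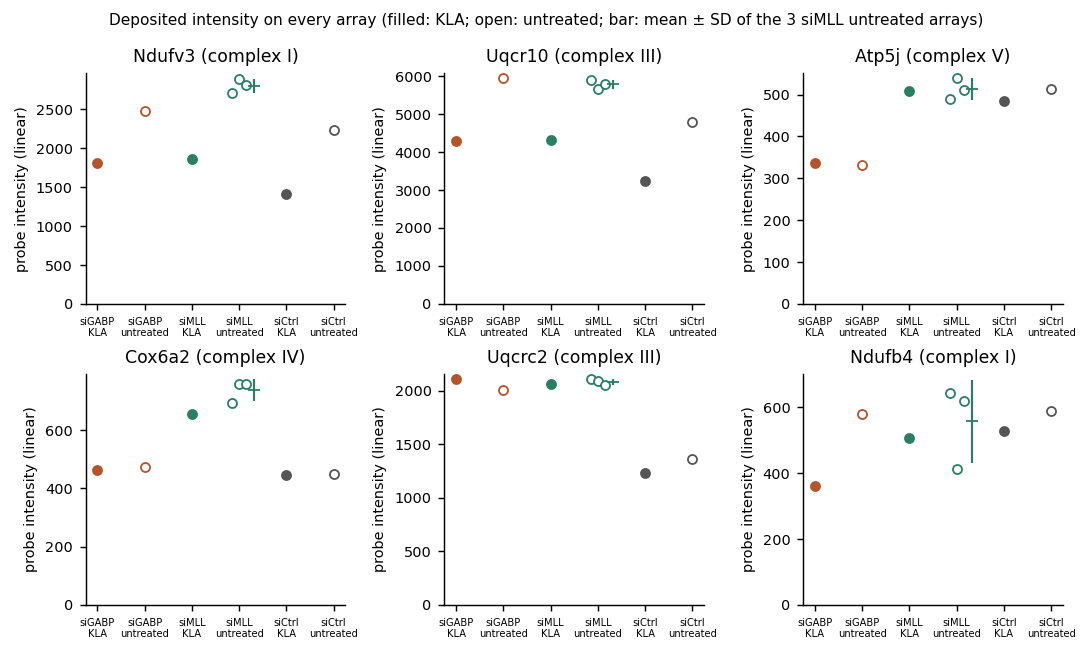
Deposited intensity of 6 subunit genes on each of the 8 arrays, by siRNA and KLA state (filled, KLA; open, untreated; bar, mean ± SD of the 3 siMLL untreated arrays; axes start at 0). Ndufv3 and Uqcr10 are lower after KLA in every siRNA group, Atp5j is low on the siGABP arrays (333 and 338), Cox6a2 is high on the siMLL arrays (656 to 760) and Uqcrc2 is low on the siCtrl arrays (1229.7 and 1364). For Ndufb4, siMLL untreated replicate 2 read 413, against 644 and 618 on the other replicates.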

How the data were processed

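The authors deposited linear intensity values, for which the submitters' processing notes name BeadStudio 1.5.1.3. Sorted, the 23978 intensities were identical on all 8 arrays, so a common distribution had been imposed before deposit. Another deposited table was not used, because its 16 columns carry running numbers that match no label, and its detection values could not be given to a group.

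Intensities were background-corrected (normexp, offset 50), quantile-normalized and log2-transformed with limma 3.58.1 in R 4.3.3. Probes with a mean log2 value above the median of 6.73 were kept (11989), and the brightest of the probes paired with 1 gene stood for it, leaving 8793 genes. The 75 members had 86 probes, and 10 members had several. The filter and background method are those foreseen for values without detection p. Probe sequences were not used here, so cross-matching between paralogs or pseudogenes was not tested.

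With 4 residual degrees of freedom, an additive model of siRNA and KLA gave the KLA, siGABP and siMLL effects and the siGABP minus siMLL difference. A model with a mean per group (2 residual degrees of freedom) gave the siRNA effects on the KLA response. Tests were two-sided over all 8793 genes, and a Benjamini-Hochberg adjusted p under 0.05 made a call. Shares of genes called refer to this threshold, and the share of all genes at an unadjusted p was not counted. Each model was run on simulated data with independent normal errors. A minimum recovery of added changes was required only of the additive model, not of the siRNA effects on the KLA response. The number of arrays limits the precision.

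Members and gene lists were chosen with earlier results of these data known. Genes named were, in each comparison, the called members with the largest changes (up to 10 each way) or, with none called, the 3 smallest p, besides the Sdh genes, isoform pairs, the brightest and dimmest members, members with several probes and those next to the filter. Other members were named to complete a complex, after their values were seen. From each other list up to 3 genes with the smallest p were named. Alternatives varied the background correction, offset, variance trend, filter, choice of probe, centring, model and the arrays included.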

Additional observations from a re-analysis of the deposited data

Results flagged for a closer look

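Atp5j, Cox6a2 and Cox5a were picked out because their siGABP and siMLL effects differed by the test of the difference itself, out of 67 members tested in limma. The difference of siGABP minus siMLL was -0.66 for Atp5j, a peripheral stalk subunit of ATP synthase, -0.63 for Cox6a2, a muscle isoform of complex IV, and 0.32 for Cox5a, a complex IV subunit. In Atp5j the siGABP arrays were low and the siMLL arrays lay near siCtrl, with siGABP at -0.62 and siMLL at 0.03 relative to siCtrl. In Cox6a2 the siMLL arrays were high, with siGABP at 0.07 and siMLL at 0.70. In Cox5a neither siRNA effect passed alone, at 0.14 for siGABP and -0.17 for siMLL.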

How the results depend on the processing

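The number of members lower after KLA stayed between 43 and 48 under all 16 alternatives (45 as reported). The single member higher after KLA, Cox7b2, was lost with no filter and with the filter at the 75th percentile (0 each), and single-array omissions gave 0 to 1. Members higher with siGABP numbered 2 to 9 when 1 array was left out, against 9 as reported. Members lower with siGABP numbered 1 with an offset of 16, 1 with no filter and 1 to 4 when 1 array was left out, against 2. Members higher with siMLL numbered 2 to 9 when 1 array was left out, against 8, and none was lower under any alternative. For siGABP minus siMLL, members higher (1 as reported) numbered 2 with no background correction, 0 with an offset of 16, 2 with a variance trend, 0 with no filter, 3 with the filter at the 75th percentile, 0 with a mean per group and 0 to 2 when 1 array was left out. Members lower (2) numbered 4 with a variance trend and 2 to 3 when 1 array was left out. No member was called for a siRNA effect on the KLA response under any of the 10 alternatives run there, which did not include leaving out a single-array group. The median KLA difference was -0.11 in complex III and -0.14 in complex IV with no filter, where the dim members enter, against -0.30 and -0.26. Of 526 repeats of the 33 gene results named as called, 464 kept their call, 62 lost it and 0 changed sign. Atp5j, Uqcrc2 and Atp5mpl with siGABP, Uqcrc2 and Cox6a2 with siMLL, and Atp5j and Cox6a2 between both siRNAs passed in all 16. Except where an alternative itself removes arrays or genes, the cause was not tested. Membership by current symbols gave the same number of members, 75. No paired analysis was possible because only the siMLL untreated group carries replicate numbers. Dim probes, single arrays in 5 of 6 groups and a common intensity distribution limit all of these values.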

Other observations

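Within the siMLL untreated triplicate, 9 members (Atp5a1, Atp5e, Atp5k, Cox7b, Ndufa6, Ndufb2, Ndufb4, Ndufb9 and Sdhd) were lower by more than 0.25 on the log2 scale in replicate 2 than in the mean of the other replicates, and none was higher by that amount. This was 13.4% of the members tested, against 3.9% of all genes tested. Ndufb4, an accessory subunit of complex I, showed the largest gap, with 413 in replicate 2 against 644 and 618. These genes were picked after their values were seen and were not tested as a group. The same 9 genes had a median KLA difference of -0.54 with siGABP, -0.08 with siMLL and -0.16 with siCtrl, against -0.28, -0.28 and -0.32 in the other 58 members tested. Replicate 2 is one of the untreated arrays behind the siMLL value, so the way the genes were picked partly set that value.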
